A study of Mus musculus with 8 samples.

Results

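The clustered histone genes are the genes whose symbols follow the old Hist1h to Hist4h naming or its newer H1f, H2ac, H2bc, H3c and H4c form. In the deposited table of adult mouse testis, 70 of 56748 gene identifiers matched this naming, all under their older symbols. Of these, 56 lie on chromosome 13, 10 on chromosome 3, 3 on chromosome 11 and 1 on chromosome 6. By class, 6 encode H1, 20 H2A, 19 H2B, 12 H3 and 13 H4 or copies of them. The members were split into 66 replication histone genes, 3 testis variants (Hist1h1t, Hist1h2aa and Hist1h2ba) and Hist1h2al, which was kept apart. GENCODE M21 annotates 3 members as pseudogenes: Hist1h2al, Hist3h2bb-ps and Hist1h2aj. The last 2 of these were counted among the replication histone genes by their names.

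RNA was sequenced from 4 libraries labelled Ak9-/- and 4 labelled WT, all from adult testis. AK9 is an adenylate kinase, an enzyme that moves phosphate groups between adenine nucleotides, and the study asked how its loss bears on sperm motility. The sources used here do not give the allele, the strain, the age in weeks or whether each library came from its own animal, so each p-value is set against the variation among the sequenced libraries and no more, and that variation may be technical. In a whole testis, fewer cells of a type and less RNA per cell cannot be told apart.

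Histones package DNA into nucleosomes: H2A, H2B, H3 and H4 form the core and H1 binds the linker between cores. Most clustered histone genes are transcribed during S phase, and their mRNAs end in a stem-loop bound by SLBP in place of a poly(A) tail. Some members can also give polyadenylated mRNA in cells that have left the cell cycle. In male germ cells, testis variants join or replace the somatic forms before protamines take over: Hist1h1t encodes the linker histone H1t of spermatocytes and spermatids, and Hist1h2aa and Hist1h2ba encode TH2A and TH2B. The sources used here do not say whether the TruSeq RNA libraries were made from poly(A)-selected RNA, so the levels below cannot be read as total histone mRNA.

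Levels are given as CPM, read counts scaled to library size with TMM factors. Library totals ran from 18062780 to 23846772 counts in the labelled knockouts and from 18763650 to 24415587 counts in the wild types. The labelled knockouts, in the order of their numbers, had Ak9 levels of 69.3, 116, 101 and 40.6 CPM, and the wild types 108, 115, 122 and 107 CPM. The level in labelled knockout 2 thus lay inside the wild-type range (log2 fold change -0.47, SE 0.25, edgeR adjusted p = 1.00; exact two-sided permutation test p = 0.143, of which 0.0286 is the least possible). Directions are therefore those between the labels. Labelled knockout 3 stood apart in its germ cell markers. The summed level of 10 elongating spermatid genes was 19886, 15982, 8420 and 20422 CPM in labelled knockouts 1 to 4 and 13335 to 16756 CPM in wild types. Sums for somatic cells varied among the labelled knockouts too. For 12 Sertoli cell genes they were 1397, 1797, 2484 and 1318 CPM, against 1751 to 1958 CPM in wild types. For 8 Leydig cell genes they were 1583, 1486, 1864 and 855 CPM, against 1675 to 1992 CPM in wild types. The summed level of 10 epididymis genes reached 217.5 CPM in labelled knockout 3 and 37.0 CPM in labelled knockout 4, and no other library exceeded 7.96 CPM. In labelled knockout 3 this sum was carried by Crisp1 (185 CPM) and Adam7 (26.2 CPM), while Gpx5, Cst11 and Defb20 were at 0 and Rnase10 was at 3.11 CPM, its lowest of the 8 libraries. Markers of the labelled tissue were present, since all 12 spermatocyte, 10 round spermatid, 12 Sertoli and 8 Leydig cell genes listed had counts and passed the low-count filter.

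Few clustered histone genes gave more than a handful of reads. The low-count filter asks for about 0.491 CPM of the library total in at least 4 libraries, and 22 of the 70 members passed it: 18 replication histone genes, all 3 testis variants and Hist1h2al. Of these 22, 15 were above the filter level in all 8 libraries, 6 in part of them, and Hist1h2al only in the 4 labelled knockouts. The 48 members that did not pass had at most 13 counts in any library and a median wild-type level of 0.0840 CPM. No counts at all were listed for 8 members, among them Hist2h2aa1 and Hist2h2aa2. With 3 counts as the 95% limit for a count of 0, such a gene could stand as high as 0.121 to 0.175 CPM by library, counting error only.

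Many members are near copies of each other, which bears on these low values. A near copy, meaning a transcript of another gene at 95% identity or more over 80% or more of the length, was found for 31 of the 66 replication histone genes. All 8 members without counts had one, as did 28 of the 48 that did not pass and 3 of the 18 replication histone genes that did (Hist1h2bp, Hist1h2bj and Hist1h3h). None of the 3 testis variants had one. The sources used here do not say how reads matching several genes were treated, so a level for a gene with copies is uncertain. The annotated transcripts were also longer among the replication histone genes that passed, with a median of 734 bases against 516 bases for those that did not.

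A few genes held most of the replication histone reads. Hist1h2bp, Hist2h2be, Hist1h4a, Hist1h1c and Hist1h2bc together took 76.6% to 82.9% of the counts of the 66 genes in each library. The plot of the most abundant replication histone genes shows them by library.

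**Figure D1:**
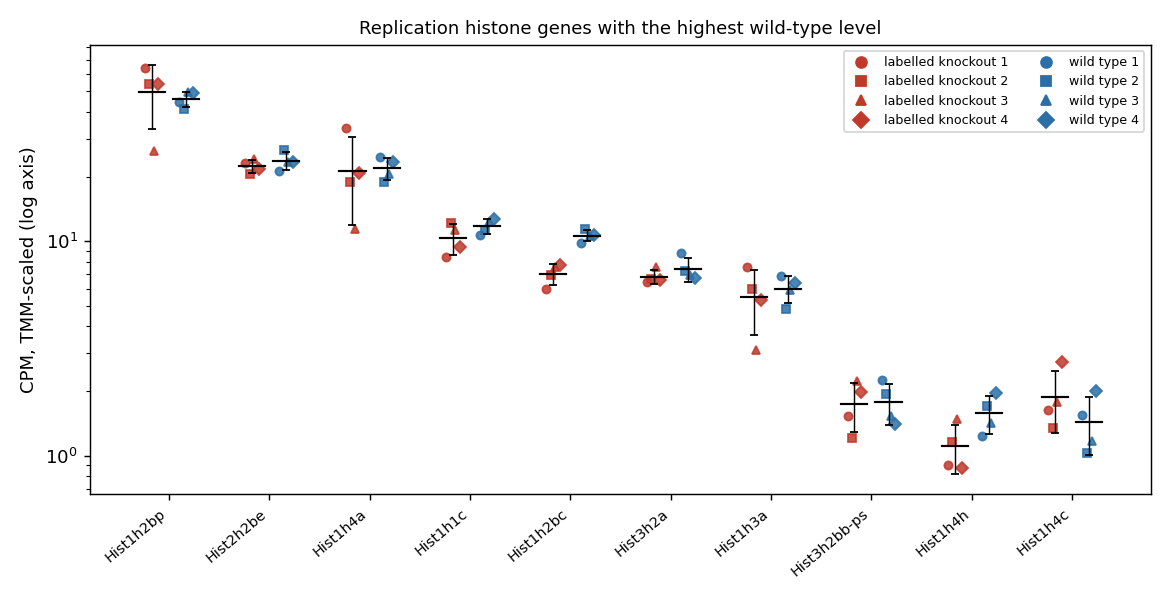
Level (CPM, log axis) of the 10 replication histone genes with the highest wild-type mean, with labelled knockouts in red left of wild types in blue. Symbols mark the library number, and bars give the mean and SD of 4 libraries. For Hist1h2bc every labelled knockout (5.95 to 7.75 CPM) lies below every wild type (9.83 to 11.4 CPM), and for Hist1h2bp, Hist1h4a and Hist1h3a labelled knockout 3 is the lowest point.

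Hist1h2bp (ENSMUSG00000069308), an H2B gene with 12 near copies, had the most reads. It reached 64.5, 54.3, 26.2 and 54.1 CPM in labelled knockouts 1 to 4, against 44.4, 41.5, 49.4 and 48.8 CPM in wild types 1 to 4. Labelled knockouts 1, 2 and 4 lay above all wild types and labelled knockout 3 below all of them. No difference passed the test (log2 fold change 0.11, SE 0.22, edgeR adjusted p = 1.00). The test missed its threshold without labelled knockout 3 too (0.31, edgeR adjusted p = 0.131).

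Set per kilobase of annotated exon, so that genes can be compared, Hist1h2bp led in both groups with 70.5 ± 23.3 CPM per kb in labelled knockouts and 65.2 ± 5.33 in wild types (SD, n = 4). Hist1h4a, an H4 gene, followed with 39.3 ± 17.2 CPM per kb in labelled knockouts and 40.5 ± 4.86 in wild types. Hist1h3a, an H3 gene, had 10.3 ± 3.47 and 11.2 ± 1.60. Between Hist1h4a and Hist1h3a in labelled knockouts stood Hist1h2al, at 32.3 ± 23.4, against 0.762 ± 0.137 in wild types. In wild types the next levels were 9.17 ± 0.540 for Hist1h2bc, 9.05 ± 0.842 for Hist2h2be, 7.52 ± 0.589 for the linker histone gene Hist1h1c and 7.38 ± 2.71 for the testis variant Hist1h2ba. Neighbours in this order from Hist1h2bc to Hist2h2be and from Hist1h1c to Hist1h2ba lay within their SD of each other.

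Among the testis variants, no difference between the groups passed edgeR's test (0 called higher and 0 lower; 0 also in DESeq2 and 0 with unadjusted p below 0.05). They were measured at low counts, from 10 to 90 per library. Over all 21805 tested genes, 0.0183% were called higher and 0% lower in the labelled knockouts at an edgeR adjusted p under 0.05, against which the histone counts are read.

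Hist1h1t (ENSMUSG00000036211) had 4.06, 3.47, 1.53 and 2.51 CPM in labelled knockouts 1 to 4 and 2.08, 1.89, 2.75 and 3.70 CPM in wild types 1 to 4. The groups overlapped, with the highest and the lowest library both among the labelled knockouts (log2 fold change 0.15, SE 0.32, edgeR adjusted p = 1.00). Hist1h2aa (ENSMUSG00000060081) had 0.992, 1.35, 0.493 and 0.875 CPM in labelled knockouts and 0.962, 0.988, 0.971 and 1.1998 CPM in wild types. Here too labelled knockout 3 was the lowest of all (log2 fold change -0.15, SE 0.31, edgeR adjusted p = 1.00). Hist1h2ba (ENSMUSG00000050799) had 2.43, 3.14, 2.42 and 2.80 CPM in labelled knockouts and 2.94, 2.29, 1.86 and 4.25 CPM in wild types. Its labelled knockouts all fell inside the wild-type range (log2 fold change -0.07, SE 0.27, edgeR adjusted p = 1.00). The sum of all 3 was 6.52 ± 1.58 CPM in labelled knockouts and 6.47 ± 1.82 in wild types (SD, n = 4).

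**Figure D2:**
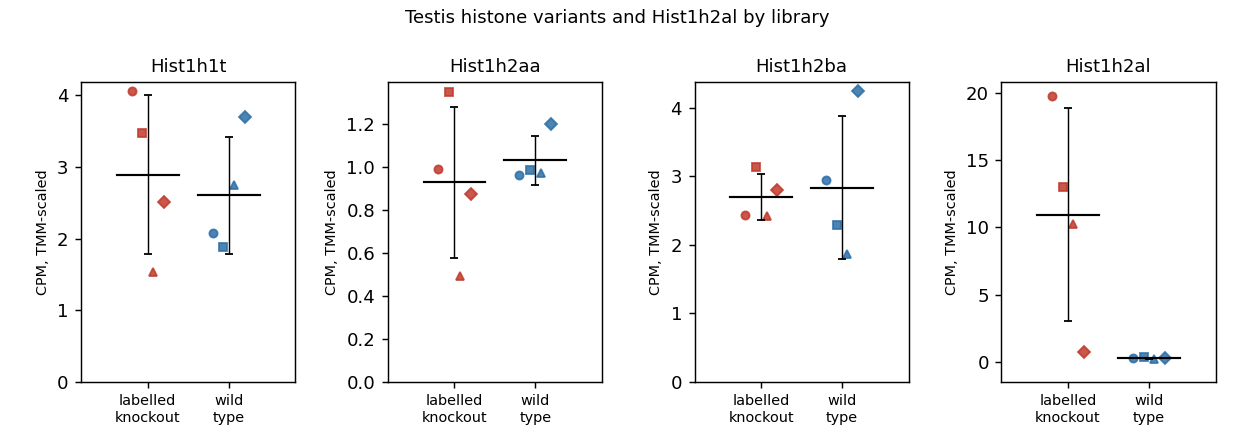
Level (CPM) of Hist1h1t, Hist1h2aa, Hist1h2ba and Hist1h2al in each library, with labelled knockouts in red left of wild types in blue and bars for the mean and SD of 4 libraries. The groups overlap for the 3 testis variants, while Hist1h2al is at 10.3 to 19.8 CPM in labelled knockouts 1 to 3, at 0.700 CPM in labelled knockout 4 and at 0.202 to 0.314 CPM in wild types.

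Hist1h2aa and Hist1h2ba are read in opposite directions from starts 280 bases apart in RefSeq on GRCm38.p6, and their 250-base promoter windows overlap by 220 bases. The Hist1h2aa window is shown with that of Hist1h1t because these are the promoters of the germ-cell-specific members. Capitals mark matches, on either strand, to the CCAAT box (CCAAT), the TATA box (TATAAA) or the octamer (ATTTGCAT), elements long described in histone promoters. The sequences are the 250 bases before the start, read on the plus strand, at chr13:23934187-23934436 for Hist1h2aa and chr13:23695561-23695810 for Hist1h1t.
Hist1h2aa: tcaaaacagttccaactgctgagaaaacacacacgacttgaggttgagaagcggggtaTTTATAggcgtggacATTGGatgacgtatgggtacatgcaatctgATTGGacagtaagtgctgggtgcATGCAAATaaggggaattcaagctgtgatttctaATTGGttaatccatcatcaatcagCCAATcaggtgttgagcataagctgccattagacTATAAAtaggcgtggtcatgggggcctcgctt
Hist1h1t: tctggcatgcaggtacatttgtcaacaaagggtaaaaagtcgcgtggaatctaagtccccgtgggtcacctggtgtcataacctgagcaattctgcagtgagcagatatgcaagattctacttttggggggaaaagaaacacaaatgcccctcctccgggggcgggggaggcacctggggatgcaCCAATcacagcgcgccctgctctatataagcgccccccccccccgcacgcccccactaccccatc

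The Hist1h2aa window held CCAAT in 4 places, TATAAA in 2, at 32 and 192 bases before the Hist1h2aa start, and the octamer in 1, and the Hist1h1t window held CCAAT in 1 place. RefSeq promoters were matched for 61 of the 70 members. In the same 250 bases, CCAAT was found in 50 of these 61 promoters against 33.8% of all 32851 promoters, TATAAA in 29 against 12.4%, the octamer in 13 against 1.60% and the cAMP response element TGACGTCA in 4 against 1.55%. CCAAT was present in 11 of the 14 replication histone genes with a promoter that passed the low-count filter and in 36 of the 44 that did not. These are matches of letters, not measured sites, and the motifs do not overlap one another in the printed windows.

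Across the replication histone genes, 0 of the 18 tested passed as higher and 0 as lower in edgeR's test. DESeq2 called none of the 66 either, but gave no adjusted p for part of them, including the 8 without counts. Its calls made up 0.157% of the genes for which it gave an adjusted p. At an unadjusted edgeR p under 0.05, 1 was higher (Hist1h3h) and 2 were lower (Hist1h2bc and Hist1h4i), where 1.25% and 1.79% of all tested genes were. Below 0 in log2 fold change were 12 of the 18, with a median of -0.10, while 47.1% of all tested genes were below 0 with a median of 0.011.

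Hist1h2bc (ENSMUSG00000018102), an H2B gene of chromosome 13, was the clearest of these. It had 5.95, 6.95, 7.55 and 7.75 CPM in labelled knockouts 1 to 4 and 9.83, 11.4, 10.6 and 10.6 CPM in wild types 1 to 4. The groups did not overlap (log2 fold change -0.59, SE 0.14), as was so on the lower side for 1.32% of all tested genes. After adjustment over all genes the difference did not pass (unadjusted p = 0.00167, edgeR adjusted p = 0.751, DESeq2 adjusted p = 0.0576). Under 14 alternatives its log2 fold change ran from -0.64 to -0.52 and its adjusted p from 0.0576 to 1.00. The other abundant H2B genes did not share it: Hist2h2be (ENSMUSG00000068854) had 23.2, 20.5, 24.1 and 21.8 CPM in labelled knockouts and 21.3, 26.6, 23.5 and 23.4 CPM in the wild-type libraries (log2 fold change -0.08, SE 0.11, edgeR adjusted p = 1.00). Whether Hist1h2bc differed from Hist2h2be in its change was not tested.

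Hist1h4i (ENSMUSG00000060639), an H4 gene, was the other member that passed the filter with all labelled knockouts lower. It had 0.270, 0.579, 0.543 and 0.350 CPM in labelled knockouts and 0.588, 0.808, 1.17 and 1.1998 CPM in wild types, from 6 to 29 counts (log2 fold change -1.11, SE 0.36, edgeR adjusted p = 1.00). It passed the low-count filter in part through the wild types. Hist2h4, an H4 gene that did not pass the filter, also had all labelled knockouts lower, with 0, 1, 1 and 2 counts in labelled knockouts 1 to 4 and 6, 8, 5 and 8 counts in wild types 1 to 4 (DESeq2 adjusted p = 0.855). Hist1h3h (ENSMUSG00000101355), an H3 gene with 8 near copies, pointed the other way. The low-count filter was passed by Hist1h3h mainly through the labelled knockouts, with 4 of them and 1 wild type over its level. That filter thus favoured a difference in this direction for Hist1h3h. Hist1h3h had 0.586, 1.25, 0.493 and 1.05 CPM in labelled knockouts and 0.214, 0.494, 0.404 and 0.400 CPM in wild types. Labelled knockout 3 fell just inside the wild-type range, and the difference did not pass (log2 fold change 1.13, SE 0.40, edgeR adjusted p = 1.00).

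**Figure D3:**
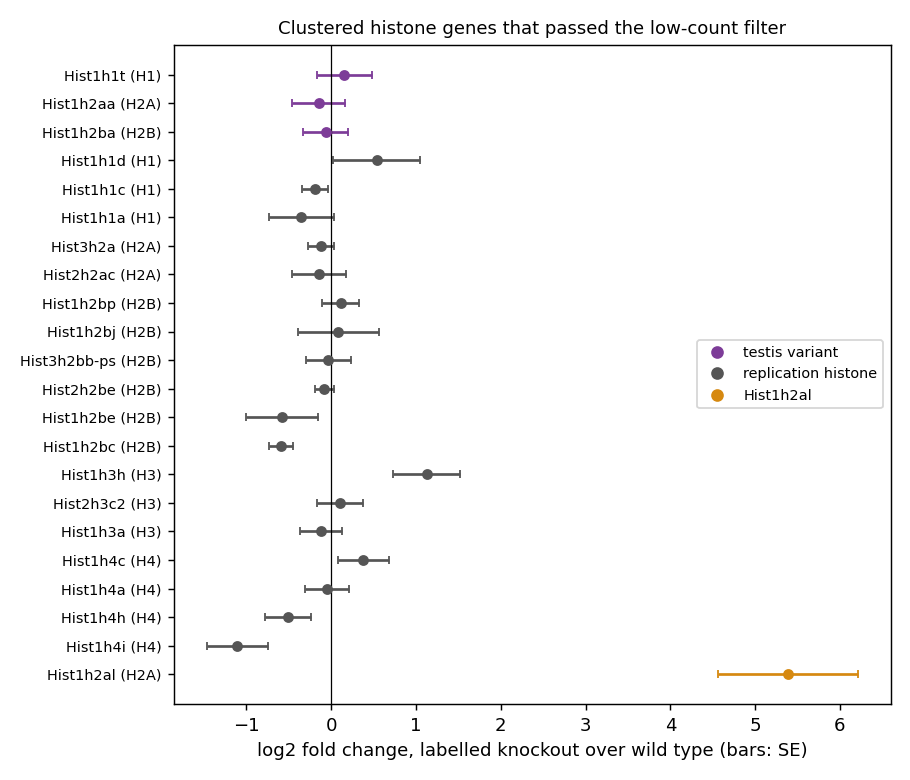
Log2 fold change, labelled knockout over wild type, with its SE for the 22 clustered histone genes that passed the low-count filter, with the testis variants at the top, then the replication histone genes by class, then Hist1h2al. The replication histone genes lie between -1.11 and 1.13, while Hist1h2al stands at 5.38.

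The class totals hardly moved. Summed over all members of a class, passed or not, replication H1 genes stood at 11.7 ± 1.54 CPM in labelled knockouts and 13.3 ± 1.07 in wild types. H2A genes stood at 8.90 ± 0.398 and 9.41 ± 0.955, and H2B genes at 82.8 ± 14.99 and 84.4 ± 3.47 (SD, n = 4). H3 genes stood at 8.80 ± 2.05 CPM in labelled knockouts and 8.76 ± 1.13 in wild types, and H4 genes at 25.2 ± 8.98 and 27.1 ± 3.06. In each class the difference in means was smaller than the larger of the SDs. All 66 together gave 164, 139, 105 and 142 CPM in labelled knockouts 1 to 4 and 141, 137, 144 and 149 CPM in wild types 1 to 4. The labelled knockouts thus included both the highest and the lowest library, with a mean of 138 ± 24.2 CPM against 143 ± 5.33 CPM in wild types. Without labelled knockout 3 the mean of the labelled knockouts was 148 CPM.

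The low library was labelled knockout 3, and its shortfall came from some genes and not from others. Hist1h4a (ENSMUSG00000060093) had 33.7, 18.8, 11.4 and 20.8 CPM in labelled knockouts 1 to 4 and 24.6, 18.8, 20.6 and 23.3 CPM in wild types, and Hist1h3a (ENSMUSG00000069265) 7.57, 5.98, 3.11 and 5.31 CPM and 6.84, 4.85, 5.91 and 6.40 CPM. Labelled knockout 3 was the lowest of the 8 libraries for both, and labelled knockout 1 the highest. As a percentage of the wild-type mean, labelled knockout 3 was at 57.0% for Hist1h2bp, 52.2% for Hist1h4a, 51.8% for Hist1h3a, 58.7% for Hist1h1t and 47.9% for Hist1h2aa. It was at 102% for Hist2h2be, 102% for Hist3h2a, 96.0% for Hist1h1c, 71.2% for Hist1h2bc and 85.3% for Hist1h2ba.

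Beside these, the marker sums in the same library were 60.8% of the wild-type mean for round spermatids, 56.8% for elongating spermatids, 89.9% for spermatocytes and 121% for spermatogonia. In labelled knockouts 1, 2 and 4 the elongating spermatid sum was 134%, 108% and 138%, and Hist1h2bp was 140%, 118% and 118%. Other genes low in labelled knockout 3 did not all rise with that sum. In labelled knockout 4, Hist1h4a, Hist1h3a, Hist1h1t and Hist1h2aa stood between 84.9% and 96.2%. In labelled knockouts 1 and 2, Hist1h4a was 154% and 86.1%, and Hist1h3a 126% and 99.7%. There Hist1h1t was 156% and 133%, and Hist1h2aa 96.3% and 131%. The part of the marker levels in these histone values was not tested. Labelled knockout 3 was the lowest library for 5 of the 22 tested members and the highest for none, while it was the lowest for 29.1% and the highest for 27.8% of all tested genes. Being lowest there was thus no more frequent among the members than among all genes, while being highest was less frequent. Neither difference was tested.

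**Figure D4:**
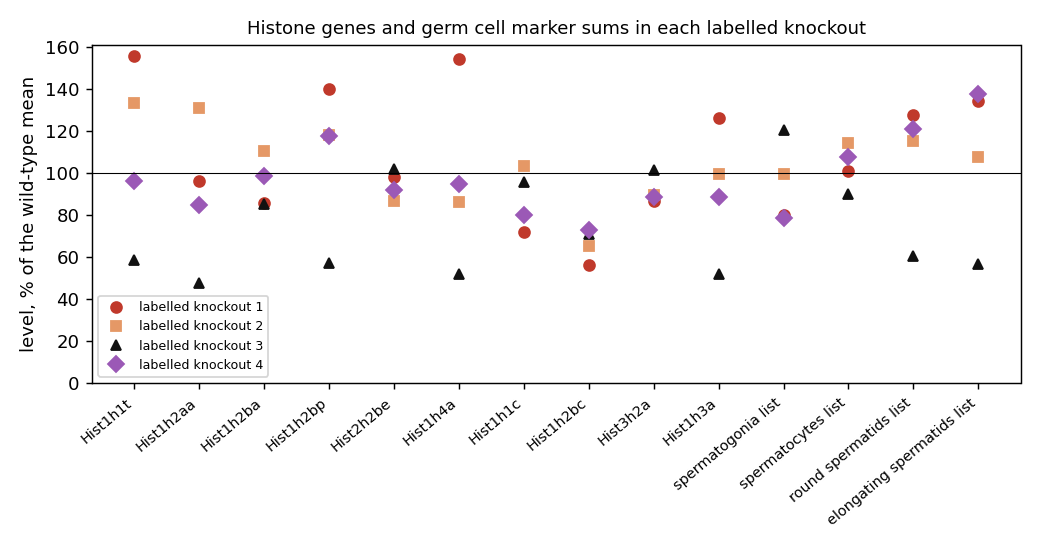
Level in each of the 4 labelled knockouts as a percentage of the wild-type mean (line at 100%) for the 3 testis variants, the 7 most abundant replication histone genes and 4 germ cell marker sums. Labelled knockout 3 (black triangles) is at 47.9% to 58.7% for Hist1h1t, Hist1h2aa, Hist1h2bp, Hist1h4a and Hist1h3a and at 56.8% and 60.8% for the spermatid sums, but near 100% for Hist2h2be, Hist1h1c and Hist3h2a.

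The remaining replication histone genes that passed the filter gave no difference that passed the test. Hist1h1c (ENSMUSG00000036181), a linker histone gene, had 8.43, 12.1, 11.2 and 9.39 CPM in labelled knockouts and 10.6, 11.3, 12.3 and 12.6 CPM in the wild-type libraries (log2 fold change -0.19, SE 0.15). Hist3h2a, an H2A gene that overlaps Trim17 on the same strand, had 6.81 ± 0.5002 and 7.43 ± 0.958 CPM (SD, n = 4). The H4 genes Hist1h4h and Hist1h4c differed by -0.51 (SE 0.27) and 0.38 (SE 0.30) in log2 terms, and the linker histone genes Hist1h1a and Hist1h1d -0.35 (SE 0.39) and 0.54 (SE 0.51). Hist1h2be (which overlaps Hist1h1e on the same strand), Hist1h2bj and the pseudogene Hist3h2bb-ps of the H2B class stood at -0.58 (SE 0.42), 0.08 (SE 0.48) and -0.04 (SE 0.26). Hist2h3c2, an H3 gene, stood at 0.10 (SE 0.27), and the H2A gene Hist2h2ac at -0.14 (SE 0.32). All of these had an edgeR adjusted p = 1.00.

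Hist1h2al (ENSMUSG00000091383) was unlike every other member in its levels. It had 19.8, 12.98, 10.3 and 0.700 CPM in labelled knockouts 1 to 4 and 0.267, 0.314, 0.202 and 0.250 CPM in wild types 1 to 4. The counts behind these were 440, 269, 208 and 12 in labelled knockouts and 5, 7, 5 and 5 in wild types. Labelled knockouts 1 to 3 were thus far above all wild types, while labelled knockout 4 was 2.71 times the wild-type mean from 12 counts. No labelled knockout overlapped the wild types, as on the higher side for 0.981% of all tested genes. The log2 fold change of 5.38 (SE 0.83) did not pass edgeR's test with all 8 libraries (edgeR adjusted p = 0.0970). Hist1h2al was called under 4 of 14 alternatives. It passed without labelled knockout 4, the one nearest the wild types (5.77, SE 0.30, edgeR adjusted p = 1.28e-05). It also passed without labelled knockout 3 (5.41, SE 0.87, edgeR adjusted p = 0.0495) and in DESeq2 (DESeq2 adjusted p = 3.38e-06). It did not pass without labelled knockout 1 (edgeR adjusted p = 0.0517) or 2 (edgeR adjusted p = 0.252). Nor did it pass without wild type 1, 2 or 3 (edgeR adjusted p = 0.572, 0.522 and 0.532). Since Hist1h2al passed the low-count filter through the labelled knockouts alone, that filter favoured a difference in this direction.

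Despite its name, Hist1h2al lies outside the histone cluster in GENCODE M21. It is annotated there as a processed pseudogene of 339 bases on the minus strand of chromosome 13, with 562 annotated genes between it and Hist1h2aa, the nearest member that passed the low-count filter, and no member beyond it. Its sequence is an H2A copy closest to Hist2h2aa1 and Hist2h2aa2 of chromosome 3, a pair alike over the matching stretch. It is printed beside the Hist2h2aa1 stretch, both from the GENCODE M21 transcripts, because 2 bases set them apart. Bases 100 to 236 of the 339 are given, and capitals mark the differing bases.
Hist1h2al: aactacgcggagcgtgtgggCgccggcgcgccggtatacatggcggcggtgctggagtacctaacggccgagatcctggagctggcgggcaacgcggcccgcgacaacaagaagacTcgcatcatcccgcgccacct
Hist2h2aa1: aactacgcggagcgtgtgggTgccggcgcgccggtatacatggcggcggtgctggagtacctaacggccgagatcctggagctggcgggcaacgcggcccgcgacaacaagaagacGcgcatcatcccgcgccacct

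Going from Hist2h2aa1 to Hist1h2al, and counting from 1 at the 5′ end of the stretch, the differences are T120C and G216T, an identity of 99.4% over 339 bases. Hist2h2ac, with 6 mismatches over the same stretch, is the next closest member. Hist2h2aa1 and Hist2h2aa2 were listed at 0 counts in all 8 libraries. Hist2h2ac had 0.631, 0.627, 0.641 and 0.816 CPM in labelled knockouts and 0.641, 0.539, 1.13 and 0.650 CPM in wild types, with no sign of the step seen for Hist1h2al.

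Gm20632 and Gm20633 of chromosome 3, whose transcripts match the same stretch at 99.4%, showed no such step in their listed levels. Their exons overlap those of Hist2h2aa2 and Hist2h2aa1 on the other strand. The sources used here do not say how reads shared by overlapping or matching genes were treated. These levels therefore cannot show whether reads from the stretch itself changed. Gm20632 had 5.41, 6.37, 5.62 and 6.01 CPM in labelled knockouts and 4.597, 5.48, 4.57 and 4.75 CPM in the wild-type libraries (log2 fold change 0.27, SE 0.16), and Gm20633 had a log2 fold change of 0.12 (SE 0.18). The nearest tested genes on either side of Hist1h2al on chromosome 13 did not follow it. Nxnl2, named as a nucleoredoxin-like gene, had 6.54, 5.98, 11.3 and 6.24 CPM in labelled knockouts and 6.90, 7.63, 5.74 and 6.70 CPM in the wild-type libraries (log2 fold change 0.16, SE 0.22). The lincRNA Gm32834 had a log2 fold change of 0.40 (SE 0.36).

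The genes most like Hist1h2al over the 8 libraries were picked by correlation, so their likeness to it is the choice itself. Of the 456 tested genes that are not clustered histone genes and whose log2(CPM + 0.5) spanned at least 2, the 5 highest Pearson correlations with it were 0.99 for Gm3608 on chromosome 1, 0.98 for Gm12666 on chromosome 4, 0.96 for Grm7 on chromosome 6, 0.90 for Rps3a2 on chromosome 14 and 0.83 for Rps26-ps1 on chromosome 8. These values describe 8 libraries of 2 groups, which all the genes share.

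Gm3608, annotated as a pseudogene, had 44.9, 51.0, 42.2 and 5.07 CPM in labelled knockouts 1 to 4 and 4.12, 5.16, 5.14 and 4.999 CPM in wild types 1 to 4. Its level in labelled knockout 4 was that of the wild types. Gm12666, annotated as protein-coding, had 11.7, 9.60, 8.39 and 0.583 CPM in labelled knockouts and 0.748, 0.718, 0.162 and 0.150 CPM in wild types. Grm7, a metabotropic glutamate receptor gene, had 5.27, 4.29, 2.17 and 0.641 CPM in labelled knockouts and 0.160, 0.359, 0.688 and 0.4999 CPM in wild types. Like Hist1h2al, all of these were high in labelled knockouts 1 to 3 and close to the wild types in labelled knockout 4.

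Rps3a2, a processed pseudogene of a ribosomal protein gene, had 12.3, 15.9, 11.9 and 1.28 CPM in labelled knockouts and 3.15, 3.19, 3.52 and 2.95 CPM in wild types, so that labelled knockout 4 was below all wild types. Rps26-ps1 differed from the rest in being high in all 4 labelled knockouts, at 12.5, 13.03, 11.0 and 12.4 CPM, against 0.695, 0.539, 0.768 and 0.650 CPM in the wild-type libraries (log2 fold change 4.19, SE 0.19, edgeR adjusted p = 2.88e-06). It was the only one of these 5 genes that passed edgeR's test, while DESeq2 also called Gm3608 (adjusted p = 0.00533), Gm12666 (adjusted p = 0.0122) and Grm7 (adjusted p = 0.00128). Over all genes, edgeR called 0.0183% higher and DESeq2 called 0.157% in either direction. Picking genes that follow Hist1h2al, itself higher in the labelled knockouts, favoured such calls, so they add no support. The log2 fold changes of Gm3608, Gm12666, Grm7 and Rps3a2 were 2.88 (SE 0.53), 4.10 (SE 0.78), 2.82 (SE 0.60) and 1.69 (SE 0.52), with edgeR adjusted p from 0.275 to 1.00.

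**Figure D5:**
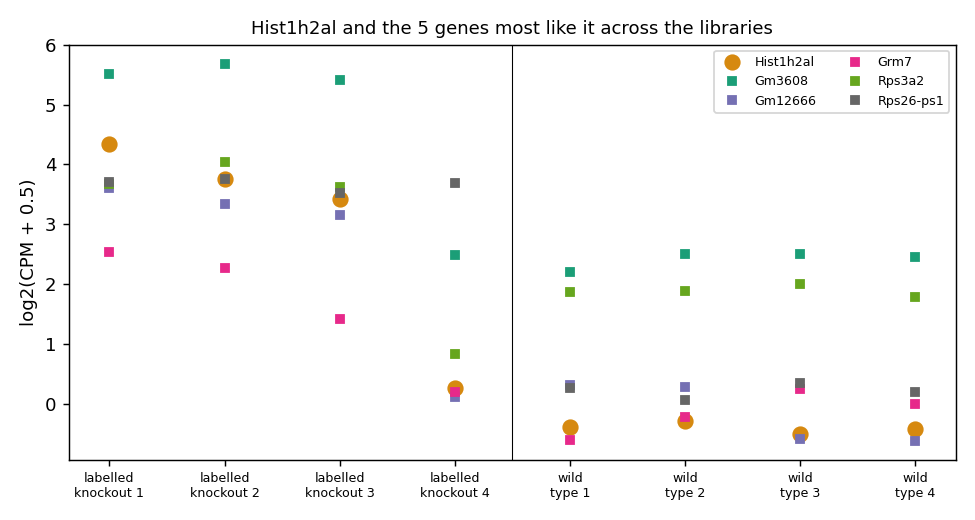
Log2(CPM + 0.5) of Hist1h2al (large orange circles) and the 5 tested genes with the highest Pearson correlation with it (squares) in each library, with labelled knockouts left of wild types. Hist1h2al, Gm3608, Gm12666, Grm7 and Rps3a2 drop between labelled knockouts 1 to 3 and labelled knockout 4, while Rps26-ps1 stays at 11.0 to 13.03 CPM in all labelled knockouts.

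None of the genes listed for making, carrying or replacing histones passed the test (edgeR, and 0 at an unadjusted p under 0.05 and 0 in DESeq2 in each of the 5 lists). Of 16 genes for histone gene transcription and mRNA end processing, among them Slbp, Npat and Casp8ap2, 0 were called higher and 0 lower, with 8 above 0 and 8 below and a median log2 fold change of -0.0033. The smallest p values were those of Mybl1, a germ cell transcription factor, at 95.2 ± 6.13 CPM in labelled knockouts and 84.3 ± 6.24 in wild types (SD, n = 4, log2 fold change 0.18, SE 0.10), and Lsm10, a subunit of the U7 particle that cuts histone mRNA, at -0.10 (SE 0.12). Of 15 histone chaperone genes 0 were called (median 0.02), led by Daxx, a chaperone of H3.3, at 0.13 (SE 0.10) and the importin gene Ipo4 at 0.10 (SE 0.12). The sums of these lists were 987 to 1094 CPM in labelled knockouts and 1015 to 1051 CPM in wild types for transcription and processing, and 2261 to 2515 CPM and 2274 to 2324 CPM for chaperones.

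DNA replication genes, which are active when replication histones are made, gave the same picture. Of 19 S phase genes 0 were called (median -0.01), and their sum was 763 to 813 CPM in labelled knockouts and 784 to 814 CPM in wild types. Prim1, a primase subunit, had a log2 fold change of 0.16 (SE 0.14) and Mcm2, of the replicative helicase, -0.19 (SE 0.17). Of 11 replacement histone genes outside the clusters 0 were called (median -0.0016), led by H2afj, an H2A variant, at 8.09 ± 1.51 CPM in labelled knockouts and 10.1 ± 0.743 in wild types (SD, n = 4, log2 fold change -0.32, SE 0.17) and the centromeric H3 gene Cenpa at -0.20 (SE 0.18).

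Of 14 genes of the exchange of histones for protamines 0 were called, with 12 above 0 and a median of 0.09. Phf7, which acts on histone H2A in spermatids, had 2357 ± 531 CPM in labelled knockouts and 2131 ± 103 in wild types (SD, n = 4, log2 fold change 0.15, SE 0.17), and the bromodomain gene Brdt had 0.08 (SE 0.10). The sum of this list, which shares the protamine and transition protein genes Prm1, Prm2, Tnp1 and Tnp2 with the elongating spermatid list, was 19077, 15589, 8791 and 19463 CPM in labelled knockouts 1 to 4 and 12990 to 16156 CPM in wild types, with labelled knockout 3 below all wild types.

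Cell type markers measured alongside were called by edgeR in no list (0 higher and 0 lower in each of 8). With unadjusted p below 0.05 there were 2 Sertoli, 1 Leydig and 1 blood gene, and DESeq2 called 1 Leydig gene. The median log2 fold change was -0.13 for spermatogonia (Ret -0.31, Sall4 -0.31), 0.02 for spermatocytes (Syce3 0.22, Dmc1 -0.24), 0.09 for round spermatids (Tex36 0.23, Acr 0.09) and 0.13 for elongating spermatids (Tssk3 0.19, Prm2 0.17). It was -0.02 for Sertoli cells (Kitl -0.50, Sox9 0.48) and -0.34 for Leydig cells (Hsd3b1 -0.85, Insl3 -0.32). Of the epididymis list 1 gene was tested (Rnase10 -0.30), and of the blood list 4 (Slc4a1 -0.83, Hba-a1 0.26).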

How the data were processed

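TRIzol RNA of whole testis, cleared of DNA, went into TruSeq libraries, per the labels' protocols. The deposited file holds unnormalized counts for each Ensembl gene, made by the authors. The submitters' processing notes name Trimmomatic, STAR, featureCounts and DESeq2 and the builds GRCm39 and mm39. The sources used here do not give versions, annotation release or strand setting, so overlapping genes on opposite strands are not told apart. Columns without a sample numbered 0. Of 56748 identifiers, 52073 were matched to a GENCODE M21 symbol and 4675 were not. That annotation is on GRCm38, so it gave names, lengths, order and sequences, and its gene coordinates are not printed.

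Low counts were removed with filterByExpr (minimum count 10, minimum total 15), leaving 21805 genes. Groups were compared with edgeR's quasi-likelihood test after TMM (edgeR 4.0.16, limma 3.58.1, R 4.3.3), with Benjamini-Hochberg adjustment over all tested genes at 0.05. SE was obtained from the fold change and its F statistic. Near copies came from a blastn 2.17.0 search of the GENCODE M21 transcripts. Each pair of libraries within a group differed by more than counting noise (chi-square of 4.19 or more per gene). The procedure was tested on simulated counts in which only genes with higher counts were changed, so detection at low counts was not covered. Each comparison was repeated with the replicate number as a block, RLE factors, no filter, a mean of 1 CPM, DESeq2 1.42.0, limma-voom and each library left out.

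The genes named are Ak9, the testis variants, Hist1h2al with its nearest tested member, the 10 replication histone genes highest in wild types, the 6 with the smallest p in each direction, the 3 most variable among labelled knockouts, the 2 with the smallest p of each list and the 5 genes most like Hist1h2al. Hist2h2ac, Gm20632, Gm20633, Nxnl2, Gm32834, Hist2h4, Crisp1, Adam7, Gpx5, Cst11 and Defb20 were named after their values were seen. The members and lists were chosen with earlier results of these data known.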

Additional observations from a re-analysis of the deposited data

Results flagged for a closer look

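In 58 sets of 4 libraries (the named genes and the class sums in each group), 1 library lay far from the other 3 in 2 sets, both in wild type 4, and chance flags about 1 set in 20. Hist1h2aa was at 1.1998 CPM in wild type 4 and at 0.962 to 0.988 CPM in the other wild types. Its counts were only 18, 22, 24 and 24 in wild types 1 to 4, the same in wild types 3 and 4 before scaling. Hist1h1a, a linker histone gene, was at 1.45 CPM in wild type 4 and at 0.485 to 0.629 CPM in the other wild types.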

How the results depend on the processing

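The count of testis variants and of replication histone genes called stayed at 0 in each direction under each of the 14 alternatives. Hist1h2al was called without a low-count filter (5.37, adjusted p = 6.12e-05), in DESeq2 (5.41, adjusted p = 3.38e-06) and without labelled knockout 3 (5.41, adjusted p = 0.0495) or 4 (5.77), its log2 fold change running from 4.93 to 5.77 when 1 library was left out. With the replicate block it was 5.14 (adjusted p = 0.0572) and in limma-voom 4.66 (adjusted p = 1.00). Over all genes, 4 higher and 0 lower calls became 16 and 10 without the filter and 27 and 21 in DESeq2, and 3 to 23 higher and 0 to 24 lower with 1 library left out; the cause was not tested. Within groups, the levels of each pair of libraries had a Spearman correlation of 0.957 to 0.993. Pairing by number was looked at with another correlation, not of the levels themselves, between labelled knockouts and wild types. It was -0.05 to 0.13 for same-numbered libraries and -0.21 to 0.29 for differently numbered ones. No sign of pairing by number was thus seen, though so few libraries cannot exclude it. With the replicate number as a block, the calls stayed at 4 higher and 0 lower. Signs turned for genes near 0: Hist1h2ba in limma-voom (0.0067) and, with 1 library left out, Hist1h1t (-0.061 to 0.37), Hist1h2aa (-0.40 to 0.054), Hist1h2ba (-0.23 to 0.19), Hist1h2bp (-0.045 to 0.31), Hist1h4a (-0.37 to 0.15), Hist1h3a (-0.33 to 0.062), Hist3h2bb-ps (-0.19 to 0.094), Hist2h3c2 (-0.042 to 0.21), Hist1h2bj (-0.19 to 0.31) and Hist1h1a (-0.53 to 0.11). Without labelled knockout 1 the calls were 9 and 24, without 3 they were 23 and 12, and without 4 they were 14 and 19. What size of difference could be detected for the members with few counts was not measured.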
